A study of Mus musculus with 8 samples.

Results

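Regions in gene deserts were the H3K27ac-marked stretches that lay far from any protein-coding gene in cultured mouse neurons. Peaks of 8 libraries that overlapped by at least 1 bp were merged on chromosomes 1 to 19 and X, and a region was kept when at least 2 libraries had a peak in it and it lay more than 100 kb from every protein-coding gene span of mm10. This gave 12227 desert regions, 17.2% of the 71082 regions shared by at least 2 libraries and 10.8% of all 113604 merged regions. The other 58855 shared regions lay in a gene span or up to 100 kb from one, and they are the set against which the desert regions are compared. The regions were thus chosen by the number of libraries with a peak and by the distance to genes. Both are therefore descriptions here and not findings.

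H3K27ac chromatin immunoprecipitation had been carried out in primary neuron cultures from C57/BL6 mice, in 4 groups of 2 libraries. The groups were MGE cultures (medial ganglionic eminence, the embryonic source of many cortical interneurons) with KCl, MGE cultures left unstimulated, cortical (CTX) cultures with KCl, and CTX cultures left unstimulated. All cultures, the unstimulated ones included, had been silenced from day 6 in vitro with tetrodotoxin at 1 µM, which blocks sodium channels, together with D-AP5 at 100 µM, which blocks NMDA receptors, and the KCl groups received 55 mM KCl on day 7 for 2 h, which depolarises the membrane. The titles gave embryonic day 14 for CTX and the source field gave embryonic day 16 for every library, and the cell type field named cortical neurons for MGE libraries also. Groups were taken from the titles. What was kept separate between libraries 1 and 2 of a group was not stated, so p-values measure only the spread between these libraries.

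Acetylation of lysine 27 on histone H3 marks active promoters and active enhancers, and the enhancers of a gene can lie very far from it on the chromosome. Long gene-poor intervals often surround genes that control development, and several forebrain transcription factors are regulated by distant enhancers inside such intervals. Depolarisation of neurons opens calcium channels and turns on immediate early genes, whose products then act at promoters and enhancers across the genome. Some transcription units without a protein product, such as long non-coding RNAs (lncRNAs) and microRNA hairpins, also lie in these intervals and have promoters of their own.

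Each library had a peak within 2 kb of all 5 general neuron markers examined. Lhx6 and Nkx2-1, transcription factors of the MGE lineage, had peaks in all 4 MGE libraries and in no CTX library, and Neurod2 and Neurod6, factors of cortical glutamatergic neurons, had the reverse. Of 7 GABAergic and MGE markers the MGE libraries had 6 or 7 and the CTX libraries 4 or 5, and Gad1, Gad2, Slc32a1 and Dlx2 were called in all 8. Of 5 glutamatergic markers the MGE libraries had 0 to 3 and the CTX libraries 4 or 5. Aqp4, an astrocyte water channel, and Sox10, an oligodendrocyte lineage factor, were called in all 4 CTX and no MGE library. Csf1r, a microglial receptor, had peaks in the 4 MGE libraries and none of the CTX ones, while Cx3cr1 was called in none. Of 3 astrocyte markers the MGE libraries had 1 or 2 and the CTX libraries 2 or 3, of 3 oligodendrocyte lineage markers 1 or 2 and 2 or 3, and of 3 microglial markers 1 or 2 and 0 or 1. The part of these other cell types in the culture differences given here was not tested. A peak list cannot tell fewer cells of a type from less acetylation in each cell.

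A few desert regions covered annotated microRNA hairpins or lncRNA promoters, and most touched neither. A hairpin was touched by 12 desert regions (0.098%), against 109 of the other shared regions (0.185%). Desert regions touched 12 of the 104 annotated microRNA hairpins that lay over 100 kb from protein-coding genes. Of these, 8 belonged to the Mir344 family in the desert between Gm51483 and Ndn on chromosome 7, and they are printed because the regions at 6 of them were called in all 8 libraries. The mature 5p sequences (RefSeq, GRCm38.p6) have the seed, bases 2 to 8, in capitals:
miR-344-5p: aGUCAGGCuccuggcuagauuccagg
miR-344b-5p: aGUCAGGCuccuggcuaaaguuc
miR-344c-5p: aGUCAGGCugcuggcuagaguac
miR-344d-1-5p: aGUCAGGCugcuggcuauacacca
miR-344d-3-5p: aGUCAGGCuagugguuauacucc
miR-344g-5p: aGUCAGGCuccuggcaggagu
miR-344f-5p: aGUCAGUCuccuggcuggaguc
The first 6 share one seed, and miR-344f-5p differs from them in it.

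The regions at the hairpins Mir344d-3, Mir344c, Mir344, Mir344-2, Mir344g and Mir344f were called in every library. At Mir344-2 (region chr7:61939271-61941140, 407 kb from the nearest protein-coding gene) the called length was 812 and 1062 bp with KCl and 786 and 1214 bp unstimulated in MGE, and 872 and 1288 bp with KCl and 1115 and 1086 bp unstimulated in CTX. The groups overlapped in both cultures. The authors' fold enrichment there lay between 3.93 and 5.82 over 7 libraries and was 6.14 in CTX unstimulated 2. The region at Mir344b was called in the CTX unstimulated libraries alone (343 and 326 bp), and that at Mir344d-1 in MGE KCl 2, MGE unstimulated 2 and CTX KCl 2 (723, 307 and 651 bp). These hairpins resemble one another, and how reads with several matching places were assigned is not given in the sources used here, so a call at one copy may include reads of another.

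Other microRNAs in desert regions are known in nerve cells or elsewhere and differed in which cultures marked them. The mature sequences again carry the seed in capitals:
miR-137-3p: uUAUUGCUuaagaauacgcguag
miR-802-5p: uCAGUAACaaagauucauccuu
Mir137 encodes a microRNA abundant in brain. Its region, chr3:118433268-118433916 between Snx7 and Dpyd, was called in 7 libraries, at 398 and 478 bp in MGE with KCl, 429 and 0 bp in MGE unstimulated, 510 and 535 bp in CTX with KCl, and 477 and 647 bp in CTX unstimulated. Its authors' fold was low, between 1.61 and 1.96. The region at Mir802, chr16:93368506-93370455 between Runx1 and Setd4, was called over 1619 and 1810 bp in CTX with KCl and 1594 and 1373 bp in CTX unstimulated, and in no MGE library.

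Promoters of lncRNAs were the other annotated elements inside the deserts. Windows of 300 bases, from 250 before to 50 after the start of a gene, lay wholly inside desert regions for 108 lncRNAs. A few are printed because they show the range of patterns: Mir100hg and Tunar were called in all 8 libraries, Gm33045 in all 8 beside Plk2, Gm41629 in the MGE libraries alone, Gm13974 in the CTX libraries alone, and Gm33624 in the CTX KCl libraries alone. They were chosen after their values were seen, and the motif matches among them are no sample of the 108 windows. Capitals mark matches on either strand to the AP-1 motif TGANTCA, the CRE motif TGACGTCA or the homeodomain core TAATTA (RefSeq, GRCm38.p6, gene strand):
Mir100hg (chr9:41376276-41376575, plus strand): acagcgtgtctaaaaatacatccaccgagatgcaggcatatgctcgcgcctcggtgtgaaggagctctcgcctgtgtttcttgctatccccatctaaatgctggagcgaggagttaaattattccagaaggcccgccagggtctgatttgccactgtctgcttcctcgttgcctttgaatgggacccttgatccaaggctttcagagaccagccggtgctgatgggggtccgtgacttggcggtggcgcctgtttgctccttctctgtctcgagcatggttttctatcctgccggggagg
Tunar (chr12:105336743-105337042, plus strand): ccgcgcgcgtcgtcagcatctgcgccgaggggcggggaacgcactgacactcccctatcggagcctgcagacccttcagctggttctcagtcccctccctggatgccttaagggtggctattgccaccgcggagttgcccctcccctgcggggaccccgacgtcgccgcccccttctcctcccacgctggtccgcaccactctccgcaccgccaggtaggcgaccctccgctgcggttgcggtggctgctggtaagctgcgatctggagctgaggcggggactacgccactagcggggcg
Gm33045 (chr13:110627722-110628021, plus strand): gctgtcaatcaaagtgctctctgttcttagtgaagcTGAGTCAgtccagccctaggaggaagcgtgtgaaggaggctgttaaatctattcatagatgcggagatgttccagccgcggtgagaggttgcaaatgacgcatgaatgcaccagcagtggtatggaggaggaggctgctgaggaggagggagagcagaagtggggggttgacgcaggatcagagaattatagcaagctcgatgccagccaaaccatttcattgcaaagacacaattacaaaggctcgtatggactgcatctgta
Gm41629 (chr17:82871586-82871885, plus strand): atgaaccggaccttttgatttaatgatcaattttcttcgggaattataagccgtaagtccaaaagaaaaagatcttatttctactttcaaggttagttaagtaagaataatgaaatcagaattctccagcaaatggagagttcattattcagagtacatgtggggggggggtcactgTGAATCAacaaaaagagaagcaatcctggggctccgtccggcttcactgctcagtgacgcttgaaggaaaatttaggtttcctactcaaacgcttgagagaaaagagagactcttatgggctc
Gm13974 (chr2:114853646-114853945, plus strand): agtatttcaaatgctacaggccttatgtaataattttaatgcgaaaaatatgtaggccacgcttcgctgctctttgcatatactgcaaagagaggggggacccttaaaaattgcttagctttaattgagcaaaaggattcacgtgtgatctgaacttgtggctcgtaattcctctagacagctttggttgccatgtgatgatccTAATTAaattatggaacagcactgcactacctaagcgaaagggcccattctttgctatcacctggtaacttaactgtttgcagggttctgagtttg
Gm33624 (chr10:119001146-119001445, minus strand): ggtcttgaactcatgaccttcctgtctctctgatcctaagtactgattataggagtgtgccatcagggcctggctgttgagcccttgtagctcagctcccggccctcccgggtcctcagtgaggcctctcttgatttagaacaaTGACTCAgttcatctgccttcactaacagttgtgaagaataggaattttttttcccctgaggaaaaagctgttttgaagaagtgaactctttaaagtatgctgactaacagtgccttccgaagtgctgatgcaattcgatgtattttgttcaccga
Over all 32619 promoter windows of the table, the AP-1 motif was found in 7.85%, the CRE motif in 1.80% and the homeodomain core in 5.25%. Among the 108 windows inside desert regions, 7 held the AP-1 motif, 1 the CRE motif and 10 the homeodomain core. A match describes letters and not a bound site.

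The Mir100hg window, the promoter of a host transcript of microRNA hairpins, had 15 CpG dinucleotides, and its region was called over 1271 and 1336 bp in MGE with KCl, 1424 and 1427 bp in MGE unstimulated, 1320 and 1336 bp in CTX with KCl, and 1308 and 1319 bp in CTX unstimulated. These lengths were nearly equal in all 8 libraries. Tunar, a lncRNA known from pluripotent and neural cells, had 30 CpGs and called lengths of 1389 and 1745 bp in MGE with KCl, 1064 and 1157 bp in MGE unstimulated, 1323 and 1658 bp in CTX with KCl, and 371 and 1540 bp in CTX unstimulated. Gm33045 had called lengths of 814 and 1241 bp in MGE with KCl, 512 and 882 bp in MGE unstimulated, 1425 and 1854 bp in CTX with KCl, and 956 and 1674 bp in CTX unstimulated, so that KCl and unstimulated libraries overlapped in each culture. Gm41629 was called over 582 and 661 bp with KCl and 577 and 444 bp unstimulated in MGE. Gm13974 was called over 936 and 1235 bp with KCl and 1223 and 1243 bp unstimulated in CTX, and Gm33624 over 286 and 828 bp in the CTX KCl libraries.

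Regions at lncRNA promoters were marked more widely than the other desert regions. A lncRNA promoter window was touched by 211 desert regions (1.73%), against 1853 of the other shared regions (3.15%). A lncRNA span held 2224 desert regions (18.2%), against 7021 of the other shared regions (11.9%). Peaks in all 8 libraries were found at 46 of the 211 (21.8%), against 607 of the 12016 desert regions that touched no such window (5.05%). The 211 were also longer, with a median merged length of 981 bp against 668 bp. They were not compared at matched lengths. Most lncRNA promoter windows in deserts had no peak: 39 of those over 100 kb from protein-coding genes (1.89%) were called in all 8 libraries and 1766 (85.5%) in none. Nearer to protein-coding genes 757 lncRNA windows (7.96%) were called in all 8 and 7288 (76.7%) in none. Most lncRNA windows were thus without a peak in both places. A peak beside a window is not counted. Windows called in all 8 libraries had a median of 5 CpGs in deserts, against 25 nearer to genes, and windows called in 1 to 7 libraries a median of 4, against 8. Counts of this kind are descriptions, without a test.

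Desert regions were marked in fewer libraries than the other shared regions. Of the desert regions, 36.02% had a peak in exactly 2 of the 8 lists, against 26.8% of the other shared regions, and 5.34% had one in all 8 (653 regions), against 20.9% of the others. Over all shared regions 18.2% were called in all 8 libraries. On every one of the 20 chromosomes the share called in all 8 was lower in deserts. By distance, this share was 25.5% within gene spans and 15.4% up to 10 kb. At 10 to 100 kb it was 8.95%, and at 100 to 250 kb 6.11%. Regions at 10 to 100 kb were thus closer in this share to the nearest desert regions than to regions within gene spans. Of the 4404 desert regions with a peak in 2 lists, 29.8% had both in MGE libraries, 59.3% both in CTX libraries and 10.9% one of each. At the limit of the rule, the 3 nearest to genes among the desert regions were 100.002 to 100.049 kb away and had peaks in 2 or 3 lists, and the 3 just outside were 99.875 to 99.94 kb away with peaks in 5 to 8. These few regions are single examples and do not describe the change at the limit. The 3 farthest lay 2221 to 2249 kb from any protein-coding gene, between Pcdh20 and Pcdh9 and between Celf4 and Pik3c3, and had peaks in 2 or 3 lists.

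**Figure D1:**
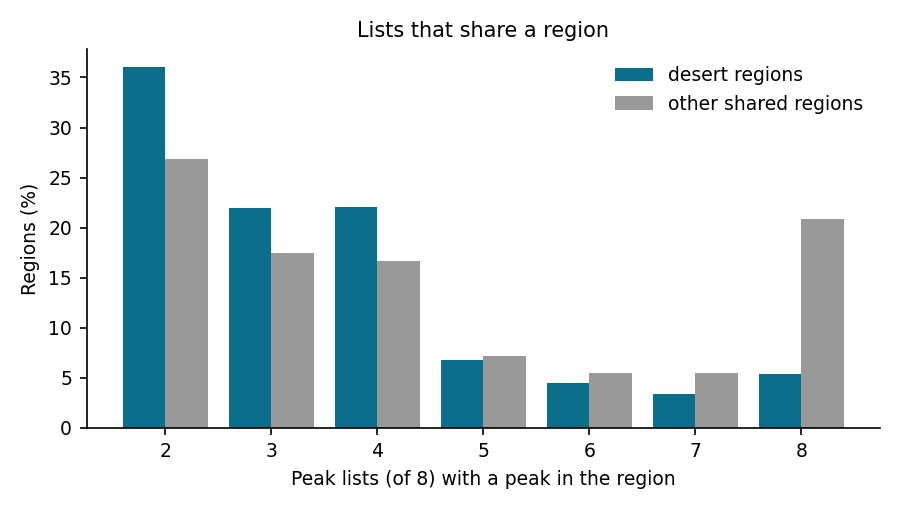
Percent of regions (y axis) by the number of the 8 peak lists with a peak in the region (x axis), for 12227 desert regions and 58855 other shared regions. At 2 lists the desert bar stands at 36.02% and the other at 26.8%, and at 8 lists they stand at 5.34% and 20.9%.

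Peaks in deserts were also weaker and shorter than peaks in the other shared regions of the same library. Most of the other shared regions lay within a gene span (40514 of 58855). The authors' fold enrichment was ranked within each list, and the median percentile of peaks in desert regions was 44.7 ± 3.39, against 54.0 ± 1.39 for peaks in other shared regions (mean ± SD, n = 8 libraries). The difference of −9.30 was below 0 in all 8 libraries (exact two-sided sign-flip permutation test, p = 0.0078, the smallest it can give, adjusted p = 0.0234 over 6 tests by Benjamini-Hochberg). The median called length was 482 ± 37.2 bp in desert regions and 617 ± 42.5 bp in the others (mean ± SD, n = 8). That difference of −135 bp was also below 0 in all 8 libraries (same exact permutation test, adjusted p = 0.0234). The merged desert regions had a median length of 671 bp and together covered 9.61 Mb. Median merged length was 838 bp within gene spans, 695 bp up to 10 kb away and 715 bp at 10 to 100 kb. At 100 to 250 kb it was 687 bp, and beyond 1 Mb 580 bp. Regions outside gene spans but up to 100 kb away were thus close in length to the nearest desert regions. Fold percentile was not compared by distance.

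The share of a library's shared regions that lay in deserts was 12.9% and 13.98% in the MGE KCl libraries, 12.96% and 13.6% in MGE unstimulated, 13.3% and 15.0% in CTX KCl, and 14.6% and 15.3% in CTX unstimulated. MGE libraries averaged 13.4 ± 0.527% and CTX libraries 14.6 ± 0.908% (mean ± SD, n = 4 each), and the difference of −1.19 percentage points did not pass (exact permutation test, two-sided, p = 0.0857, adjusted p = 0.129). KCl libraries averaged 13.8 ± 0.944% and unstimulated libraries 14.1 ± 1.04% (mean ± SD, n = 4 each), a difference of −0.33 points (exact permutation within cultures, adjusted p = 0.611). The sign of the MGE minus CTX difference depended on how much each list held: with the same number of peaks in every list it was 0.419 points.

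The number of desert regions called followed the size of the peak list. Desert regions with a peak made up 32.0% and 45.4% of all 12227 in MGE KCl, 33.3% and 33.5% in MGE unstimulated, 42.1% and 63.9% in CTX KCl, and 41.4% and 61.9% in CTX unstimulated. The 2 CTX libraries numbered 2 stood above all others, and they also held the most peaks, 66827 and 64878, while the other 6 lists held 36035 to 49635. The difference between MGE and CTX libraries was −16.3 points and did not pass (exact permutation test, adjusted p = 0.129). It was 0.654 points with equal numbers of peaks. The difference between KCl and unstimulated libraries was 3.30 points (exact permutation within cultures, adjusted p = 0.611), and it was −1.28 points with equal numbers of peaks. How many reads stood behind each list is unknown, so depth and biology cannot be told apart in these counts.

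**Figure D2:**
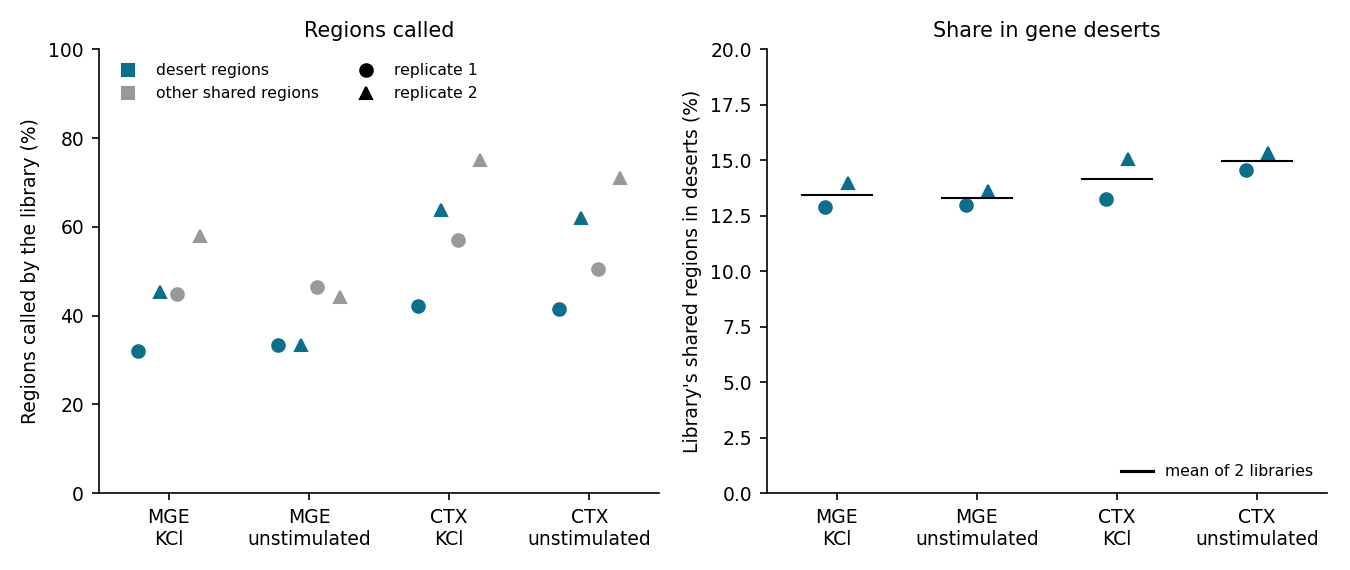
Left, percent of desert regions and of other shared regions called by each library (y axis) in the 4 groups (x axis), circles for replicate 1 and triangles for replicate 2. Right, percent of each library's shared regions that lay in deserts, with a line at the mean of the 2 libraries. In each library the desert point on the left lies below the point of the other regions, and on the right all 8 libraries lie between 12.9% and 15.3%.

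Many desert regions were marked in one culture alone. Peaks in all 4 MGE libraries and no CTX library were found in 760 desert regions (6.22%), against 4.28 percent of all shared regions. The reverse, all 4 CTX and no MGE library, held for 1291 (10.6%), against 7.72 percent of all shared regions. Which count was the larger depended on list size. With equal numbers of peaks 812 desert regions were MGE-only and 727 CTX-only. With equal called bases (chosen after seeing the data) the counts were 653 and 332. Among desert regions called in all 4 MGE libraries, 39.8% (760 of 1911) had a peak in no CTX library, against 13.2% of the other shared regions (2281 of 17309). Among those called in all 4 CTX libraries, 45.6% (1291 of 2830) had a peak in no MGE library, against 19.3% of the others (4200 of 21814). Desert regions exceeded the others in MGE-only regions on 16 of 20 chromosomes and in CTX-only regions on 19 of 20. Under all 20 settings of calling, filtering and libraries used, the reported one included, the desert percentage stayed above that of the other regions for both cultures, by 2.66 to 8.03 times for MGE and 2.01 to 4.98 times for CTX.

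The culture restriction grew with distance from genes. Of regions called in all 4 MGE libraries, no CTX library called 10.7% of those within a gene span, 26.4% at 10 to 100 kb, 33.2% at 100 to 250 kb, 41.7% at 250 to 500 kb, 51.1% at 500 kb to 1 Mb and 64.4% (56 of 87) beyond 1 Mb. For regions called in all 4 CTX libraries the percentages absent from MGE were 15.4, 34.4, 43.2, 44.7, 54.4 and 61.6 (69 of 112) over the same distances. Leaving out promoters kept the desert percentage above the other: without regions that touch a promoter window, 40.9% of the desert regions called in all 4 MGE libraries were in no CTX library, against 22.2% of the others, and 46.4% of those in all 4 CTX libraries were in no MGE library, against 29.2% of the others.

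**Figure D3:**
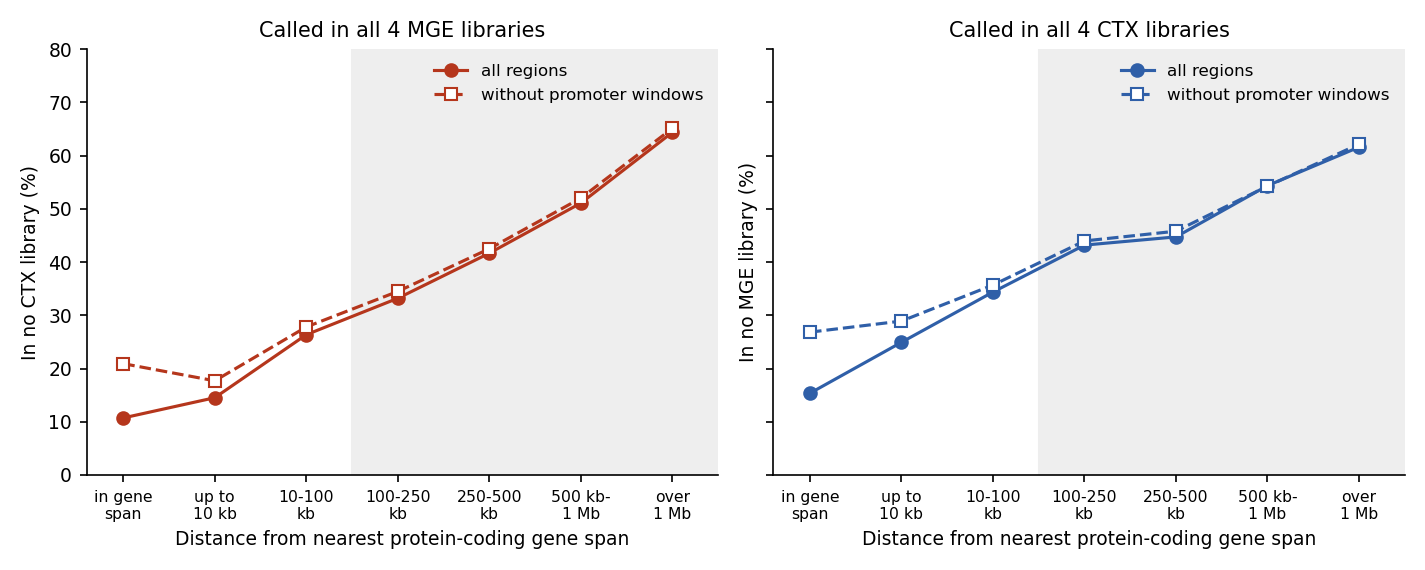
Percent of the regions called in all 4 libraries of one culture that no library of the other culture called (y axis), by distance from the nearest protein-coding gene span (x axis), for MGE (left) and CTX (right). Filled symbols are all regions, open symbols leave out regions that touch a promoter window, and the grey field marks desert regions. For all regions the MGE values go up from 10.7% in gene spans to 64.4% beyond 1 Mb, and the CTX values from 15.4% to 61.6%.

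Short regions were more often restricted to a culture, and desert regions were shorter, so the comparison was repeated at matched called lengths. At 600 to 800 bp of mean called length, 44.3% of the desert regions in all 4 MGE libraries were in no CTX library, against 24.2% of the other regions outside promoter windows. Over 1000 bp these values were 13.7% and 6.90%. In CTX they were 54.0% and 34.3% at 600 to 800 bp, and 20.3% and 10.6% over 1000 bp. At each of the 5 lengths compared in each culture the desert percentage was the higher one. These are descriptions of the lists, without a test.

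Pairs of libraries overlapped on average in a similar order. Of the desert regions called by an MGE library, on average 74.9% were also called by the second library of its group, 64.5% by a library of the other treatment in MGE and 39.2% by a CTX library. Of those called by a CTX library, 77.7% were also called by the second library of its group, 67.5% by one of the other treatment in CTX and 27.4% by an MGE library. For the other shared regions these averages were 82.9%, 75.2% and 66.5% from MGE libraries and 83.3%, 76.6% and 51.2% from CTX libraries. The averages toward the other culture were lower in deserts than elsewhere for both cultures. One pair left this order. CTX KCl 2 and CTX unstimulated 2, the 2 largest lists, shared 65.4% of the desert regions that either called. The 2 CTX KCl libraries shared 59.3% and the 2 CTX unstimulated libraries 59.5%. Among the other shared regions these values were 73.5%, 70.9% and 66.4%.

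The MGE-only regions with the most called bases lay between Slc39a10 and Tmeff2, between Rdh14 and Kcns3 and between Ipmk and Zwint. The first, chr1:48109660-48111581, was 1184 kb from the nearest protein-coding gene and was called over 1583 and 1777 bp with KCl and 1838 and 1895 bp unstimulated in MGE, with authors' folds of 3.24 to 3.73. The second, chr12:10825722-10827953, was called over 1422 and 2030 bp with KCl and 1798 and 1731 bp unstimulated. The CTX-only regions with the most called bases lay between Sema6a and Eno1b, between Sec61g and Egfr, the receptor of epidermal growth factor, and between Rasa1 and Cox7c. The region beside Egfr, chr11:16626785-16629019, was called over 1648 and 2136 bp with KCl and 1960 and 1873 bp unstimulated in CTX. At the first both unstimulated libraries lay above both KCl libraries, and at the second and at the region beside Egfr the 2 treatments overlapped.

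Of the 653 regions called in all 8 libraries, those with the most called bases are given here, so their length follows from the choice. The one between Usp25 and Cxadr, chr16:77235736-77239784, was called over 2549 and 3700 bp in MGE with KCl, 2969 and 2481 bp in MGE unstimulated, 3347 and 3984 bp in CTX with KCl, and 3451 and 3436 bp in CTX unstimulated. The one between Npvf and Gm38821, chr6:50775557-50778642, holds the promoter window of the lncRNA C530044C16Rik and was called over 2510 to 3086 bp. Another, between Esp15 and Esp38 (chr17:39843218-39846700), overlapped Rn18s-rs5, a pseudogene annotated as related to 18S ribosomal RNA. Its fold was low and even, 2.16 to 2.60, and reads from repeated ribosomal DNA cannot be told apart from reads of this place.

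With KCl, 892 desert regions (7.30%) were gained in MGE cultures, meaning that both KCl libraries and neither unstimulated library had a peak, against 7.01 percent of all shared regions. In CTX cultures 924 (7.56%) were gained, against 7.47 percent of all shared regions. Lost regions, with the reverse pattern, numbered 446 in MGE (3.65%, against 3.32 percent of all shared regions) and 854 in CTX (6.98%, against 5.21 percent). The gained shares in deserts were thus near the background, and the lost share in CTX was above it. By distance, the share lost in CTX was 3.78% within gene spans and 6.80% up to 10 kb. At 10 to 100 kb it was 7.34%, and at 100 to 250 kb 7.02%. The higher share was thus also found outside gene spans near genes and was not particular to deserts. A peak in all 4 KCl libraries and no unstimulated library was found in 73 desert regions (0.597%), against 0.898 percent of all shared regions, and the reverse in 13 (0.106%), against 0.187 percent. Single regions were not tested for KCl, since an exact permutation test of 2 libraries against 2 cannot give a p below 0.33.

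The balance of gained over lost regions depended on the lists. With the same number of peaks in every list, 669 desert regions were gained and 598 lost in MGE, and 596 gained and 734 lost in CTX. With the same number of called bases, 421 were gained and 686 lost in MGE, and 197 gained and 526 lost in CTX. Leaving out MGE KCl 2 changed the MGE counts to 468 gained and 995 lost. Leaving out CTX KCl 2 gave 405 gained and 1840 lost in CTX, and leaving out CTX unstimulated 2 gave 1926 gained and 219 lost. The sign of the balance was thus not the same under all of these settings, and with libraries left out.

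The next regions were taken from those gained in a culture or called in all 4 KCl and no unstimulated library. The absence of peaks in the unstimulated libraries of that class thus follows from the choice. In the desert between Akr1e1 and Klf6, the region chr13:5249032-5249935 lay 612 kb from Klf6, a zinc finger factor gene of the immediate early class. It was called over 668 and 867 bp in MGE with KCl and 751 and 757 bp in CTX with KCl, and in none of the 4 unstimulated libraries. Another in that desert, chr13:5058964-5061023, was the gained MGE region with the largest mean difference, at 1428 and 1508 bp with KCl and 0 in both unstimulated MGE libraries. In CTX it was called over 1243 and 1548 bp with KCl and 873 and 444 bp unstimulated. The region chr1:67503335-67505416 between Cps1 and Erbb4, a neuregulin receptor gene of interneurons, was gained in CTX at 1078 and 1293 bp against 0 in both unstimulated libraries, while MGE cultures marked it at 1275 and 1661 bp with KCl and 1589 and 1088 bp unstimulated. The region beside Enc1, chr13:97485227-97486853 inside the lncRNA Lncenc1, was gained in MGE at 1105 and 1547 bp with KCl and was also called in CTX KCl 2 (931 bp).

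The desert regions were spread over 1122 of the 1537 gaps longer than 200 kb between protein-coding genes. Their density was 16.6 per Mb of desert interior, against 31.6 other shared regions per Mb elsewhere, and the interiors made up 28.4% of the span from first to last gene. A desert with members held a median of 6. The 186 deserts with at least 20 held 51.4% of all desert regions, and the longest interior with none, between LOC115489384 and Rab10, was 2985 kb. Neighbouring desert regions lay a median of 14.9 kb apart, and 88.5% had another within 50 kb, against 95.6% of the other shared regions. Linking regions up to 50 kb apart gave 2262 clusters of at least 2, of which 229 held 10 or more.

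The largest cluster had 83 regions over 866 kb between Arpp21 (a phosphoprotein of the cAMP pathway) and Pdcd6ip on chromosome 9. MGE libraries called 4 and 8 of them with KCl and 6 and 6 unstimulated, while CTX libraries called 37 and 60 with KCl and 45 and 74 unstimulated. In CTX 7 regions of the cluster were gained with KCl and 15 lost. The next cluster, 48 regions over 744 kb between Slc10a2 and Efnb2 (an ephrin ligand of axon guidance), was called by the MGE libraries at 24 and 34 regions with KCl and 28 and 27 unstimulated, and by the CTX libraries at 12 and 23 with KCl and 14 and 20 unstimulated. The cluster between Mn1 and Cryba4 had 41 regions, 12 of them called in all 8 libraries. The others of the 5 largest lay between Zfp608 and Gramd3 (40 regions) and between Gm6569 and Adgrb1 (38 regions).

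Where culture-restricted regions were neighbours, up to 50 kb apart, most were restricted to the same culture. The 25th percentile of the gaps between neighbouring desert regions was 1.58 kb. Pairs were not counted again with close peaks merged. Of 398 neighbouring pairs in which both were restricted to a culture, 91.7% were restricted to the same one, 144 pairs to MGE and 221 to CTX, against 86.1% of such pairs among the other shared regions. Of 160 neighbouring pairs both gained or lost in MGE, 79.4% had the same direction, against 79.8% among the other shared regions. Of 276 such pairs in CTX it was 72.1%, against 78.3% among the others. Of 146 deserts with at least 5 culture-restricted regions, 10 had MGE-only regions alone, 43 had CTX-only regions alone, and 93 had both. These counts of deserts were not repeated with lists of equal size.

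Among the deserts with the most regions, that between Celf4, an RNA-binding protein of neurons, and Pik3c3 held 114 regions, and MGE libraries called 21 and 38 with KCl and 25 and 24 unstimulated, while CTX libraries called 54 and 85 with KCl and 64 and 90 unstimulated. That between Slc10a2 and Efnb2 held 102, with 15 MGE-only and 9 CTX-only regions side by side. Arpp21 to Pdcd6ip followed with 99, of which none were MGE-only and 12 CTX-only, and 17 were lost with KCl in CTX. The remaining 7 of the 10 lay between Celf2 and Gata3 (89), Gm15501 and Tenm4 (81), Zfp608 and Gramd3 (78), Slitrk5 and Gpc5 (76), Zeb2 and Acvr2a (70), Nmur2 and Gria1 (64), and Flrt2 and Galc (64). Tenm4 encodes a teneurin adhesion protein, Slitrk5 a synaptic adhesion protein, Zeb2 a transcription factor of migrating interneurons and Gria1 an AMPA receptor subunit.

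The desert between Celf2, an RNA-binding splicing factor, and Gata3 had the most CTX-only regions of the 10. MGE libraries called 9 and 15 of its 89 regions with KCl and 14 and 15 unstimulated, and CTX libraries called 53 and 80 with KCl and 53 and 75 unstimulated. The cultures did not overlap, and no region was MGE-only while 26 were CTX-only. Slitrk5 to Gpc5 went the other way, with 13 MGE-only and 2 CTX-only regions and 49 and 53 regions called with KCl and 37 and 35 unstimulated in MGE, against 19 and 33 with KCl and 19 and 28 unstimulated in CTX. It and Gm15501 to Tenm4 each had 15 regions gained with KCl in MGE, and the second also had 16 CTX-only regions.

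Among deserts picked for their culture-restricted regions after the values were seen, the 46 regions between Gm4868 and Tmem132c were called in MGE at 32 and 34 with KCl and 35 and 27 unstimulated, and in CTX at 2 and 4 with KCl and 4 and 5 unstimulated. The 40 between Btbd3 and Sptlc3 had 11 MGE-only regions, as had the 29 between BC030500 and Aadat, and neither desert had a CTX-only region. On the cortical side, Bcl11a to Fancl had 1 MGE-only and 14 CTX-only regions of 63. Bcl11a encodes a transcription factor of cortical neurons. Sorcs3 to Sorcs1, a pair of sorting receptor genes, had no MGE-only and 12 CTX-only regions of 32.

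**Figure D4:**
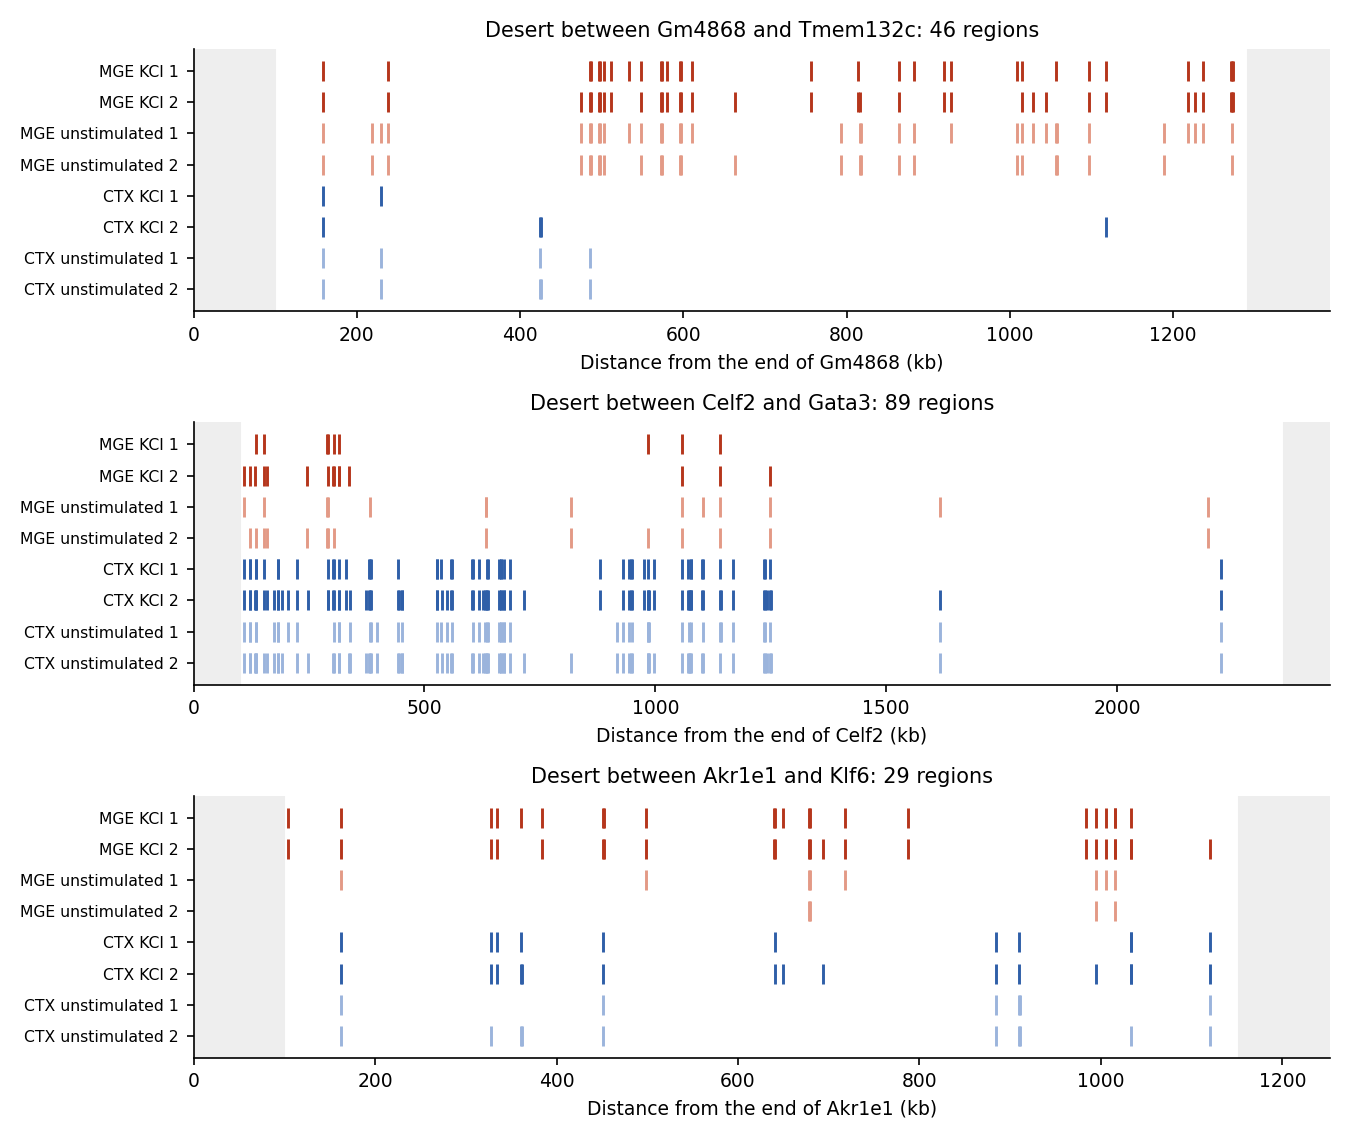
Desert regions called by each library (rows, ticks at the middle of a region) by distance from the end of the left flanking gene in kb (x axis), in the deserts Gm4868 to Tmem132c, Celf2 to Gata3 and Akr1e1 to Klf6. Grey fields are the 100 kb next to each gene, where no region counts as desert. The 46 regions of the first were called mainly in MGE, the 89 of the second mainly in CTX, and of the 29 of the third the MGE KCl libraries called 22 and 23, against 8 and 4 in MGE unstimulated.

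Of all 21631 protein-coding genes, 9.001% flanked a desert with members. Of 85 forebrain transcription factors 54 did (63.5%), of 72 adhesion molecules 57 (79.2%), of 38 axon guidance genes 29 (76.3%), and of 68 ion channels and receptors 44 (64.7%). Of 30 MGE and GABAergic identity genes 16 did (53.3%), of 33 cortical glutamatergic genes 13 (39.4%), of 36 late activity-regulated genes 15 (41.7%) and of 35 immediate early genes 8 (22.9%). Of 32 genes of glia and progenitors 7 flanked one, of 36 genes silent in neurons 2, and of 28 housekeeping genes none. Long gaps themselves are unevenly distributed: 70.6% of the forebrain factors and 81.9% of the adhesion molecules flanked a gap over 200 kb, against 12.01% of all genes. The lists were chosen with earlier results of these data known.

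Of 1485 flanking genes with a promoter window in the table, 24.6% had it called in all 8 libraries and 32.7% in none, against 25.1% and 45.4% of all protein-coding genes. Of 493 genes that flanked long gaps without desert regions alone, 18.7% were called in all 8 and 57.0% in none. Satb1, Sox6, Plk2, Robo1, Robo2 and Grik2 had promoters called in all 8 libraries, while Sox2, Bcl11a, Id2, Efnb2 and Klf6 had the window called in none although 52 to 102 desert regions lay in their flanking deserts. The window covers 300 bases at 1 annotated start, and a peak beside it is not counted.

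Deserts beside MGE and GABAergic identity genes held more MGE-only than CTX-only regions. Of 190 desert regions flanked by such a gene, 33 were MGE-only (17.4%) and 7 CTX-only (3.68%), against 6.22% and 10.6% of all desert regions. Beside Nxph1, a secreted neurexin ligand of interneurons, the 39 regions up to Ndufa4 included 10 MGE-only and no CTX-only region, and called bases came to 13608 and 18976 with KCl and 15025 and 16364 unstimulated in MGE, and 5393 and 7384 with KCl and 3647 and 4773 unstimulated in CTX. Beside Maf, a transcription factor of MGE interneurons, the 4 regions toward Wwox were called over 2546 and 3538 bp with KCl and 2612 and 2243 bp unstimulated in MGE, and over 0 bp in every CTX library. The 17 regions on its other side, toward Dynlrb2, were called over 6183 and 6826 bp with KCl and 9370 and 5301 bp unstimulated in MGE, and over 1614 and 3580 bp with KCl and 245 and 3124 bp unstimulated in CTX, with 3 MGE-only and 1 CTX-only region. Erbb4 toward Cps1 had 37 regions, 4 of them MGE-only and none CTX-only. The list holds Lhx6 and Nkx2-1, which were also the markers of the cultures above, so its direction is no independent evidence.

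Of 1071 desert regions flanked by a forebrain transcription factor, 48 were MGE-only (4.48%) and 130 CTX-only (12.1%), against 6.22% and 10.6% of all desert regions. Of 139 regions beside glial and progenitor genes, 2 were MGE-only (1.44%) and 21 CTX-only (15.1%), and Sox9, a factor of progenitors and astrocytes, had no MGE-only and 6 CTX-only regions of 44. Aqp4 and Sox10 were called in the CTX libraries alone, as given above. Beside cortical glutamatergic genes 20 of 292 regions were MGE-only (6.85%) and 29 CTX-only (9.93%). Mef2c, an activity-regulated factor, had 76 regions, 5 MGE-only and 6 CTX-only.

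Deserts beside immediate early genes held more regions gained with KCl. Of 170 such regions, 24 were gained in MGE (14.1%) and 22 in CTX (12.9%), against 7.30% and 7.56% of all desert regions, and 4 of the 170 were called in all 4 KCl and no unstimulated library. The 2 deserts of Klf6 held 15 of the 24 gained in MGE and 6 of the 22 gained in CTX. Without them 9 of 115 were gained in MGE (7.83%) and 16 in CTX (13.9%). Between Akr1e1 and Klf6, MGE libraries called 13410 and 15919 bp with KCl and 4260 and 1762 bp unstimulated, and CTX libraries 6459 and 11499 bp with KCl and 3454 and 5759 bp unstimulated. KCl and unstimulated libraries did not overlap in either culture.

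Between Sec61b and Nr4a3, an orphan nuclear receptor, 2 of 27 regions were gained in MGE and 7 in CTX, and CTX libraries called 18 and 25 regions with KCl and 12 and 17 unstimulated. Between Dusp6, a phosphatase that dampens ERK signalling, and Csl, 5 of 21 were gained in each culture, at 4414 and 5928 bp with KCl and 1412 and 948 bp unstimulated in MGE, and 6053 and 10433 bp with KCl and 3221 and 7352 bp unstimulated in CTX, where the groups overlapped. Klf4 had 1 of 27 gained in MGE and none in CTX, and Gadd45g had 1 of 21 gained in CTX and 3 lost. Late activity-regulated genes had 11 of 180 gained in each culture (6.11%). Outside the lists, the desert between Nmbr and Cited2, a transcriptional co-regulator gene, was picked after its values were seen and had 13 of 58 regions gained in MGE and 11 in CTX.

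**Figure D5:**
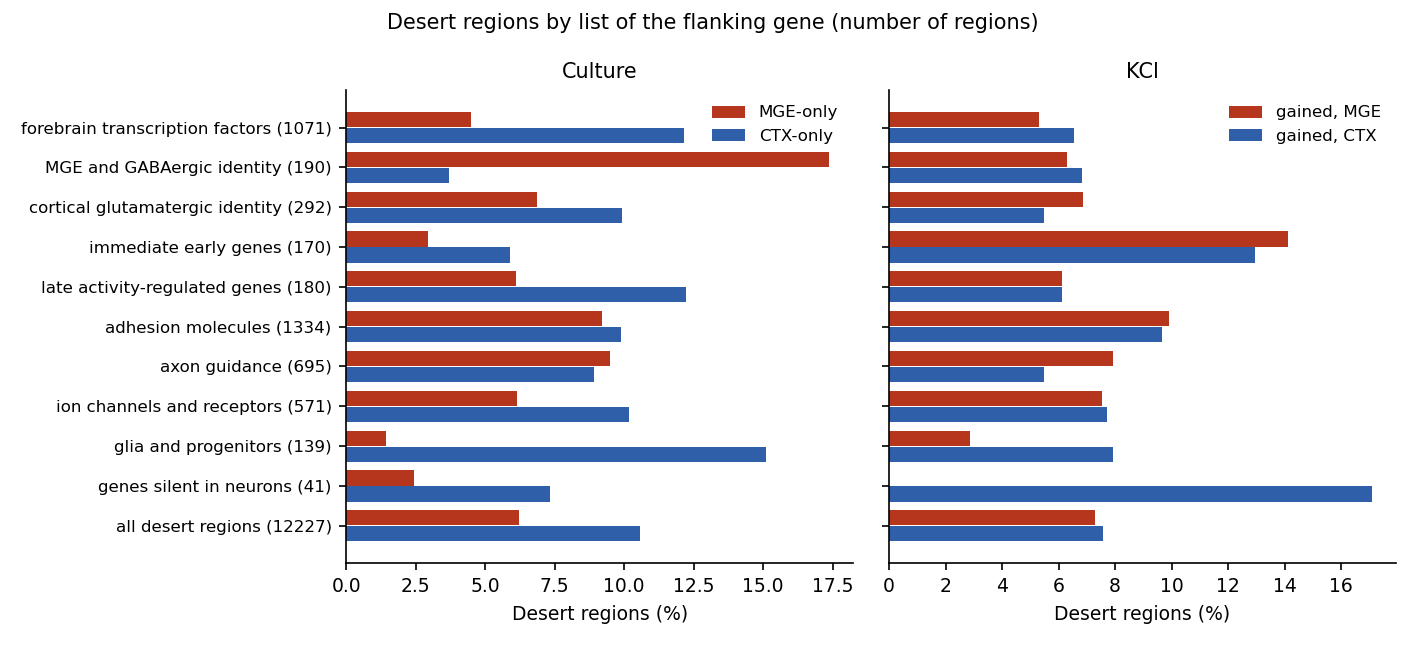
Percent of desert regions that were culture-restricted (left) or gained with KCl (right), x axes, by the list of the flanking gene (rows, with the number of regions), MGE in red above CTX in blue. Regions beside MGE and GABAergic genes stand at 17.4% MGE-only and 3.68% CTX-only, and regions beside immediate early genes at 14.1% gained in MGE and 12.9% in CTX. The 41 regions beside genes silent in neurons stand at 17.1% gained in CTX, and all desert regions at 7.30% gained in MGE and 7.56% in CTX. Lists can share regions.

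Beside adhesion and guidance genes, the counts of MGE-only and CTX-only regions were close to each other. Of 1334 regions beside adhesion molecules 123 were MGE-only (9.22%) and 132 CTX-only (9.90%), against 6.22% and 10.6% of all desert regions, and 132 were gained in MGE (9.90%) and 129 in CTX (9.67%), against 7.30% and 7.56%. Flrt2, which had deserts on both sides, had 17 MGE-only and 5 CTX-only of 102 regions, and Tenm4 had 2 and 16 of 81. Of 695 regions beside axon guidance genes 66 were MGE-only (9.496%) and 62 CTX-only (8.92%). Epha7, an ephrin receptor, had 65 regions with 8 MGE-only and 4 CTX-only. Of 571 regions beside ion channels and receptors 35 were MGE-only (6.13%) and 58 CTX-only (10.2%), near the shares of all desert regions, with Htr2a, a serotonin receptor, at 6 MGE-only and none CTX-only of 26 and Kcnt2, a potassium channel, at none and 9 of 42. Of the 41 regions beside genes silent in neurons, 1 was MGE-only (2.44%) and 3 were CTX-only (7.32%). In CTX 7 of them were gained with KCl (17.1%) and 8 lost (19.5%), against 7.56% and 6.98% of all desert regions. The 41 lay beside Ins1 (24) and Tnp1 (17) alone, and 18 of them lay between Sorcs1 and Ins1. Sorcs1 is on the late activity-regulated list, so a region can count under more than 1 list.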

How the data were processed

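H3K27ac peaks had been called by the authors in each of 8 libraries and deposited as a list per library. Per the submitters' processing notes, the genome build was mm10 and the tools named, with no role or order, were deepTools 3.4.3, MACS3 3.0.0a7, Bowtie2 2.3.3 and cutadapt 1.18. Reads were 50 bp, per the labels' protocols. Each deposited peak carries a score, a fold enrichment (a ratio), and the −log10 of a p-value and of a q-value, as the authors' peak caller gave them. The sources used here do not give use of an input, handling of duplicates or reads per library, so depth is unknown and no interval was set from it. The lowest −log10 q of a list was 1.30 to 1.35.

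Regions were merged at an overlap of 1 bp with Python 3.11.15, numpy 2.4.6 and pandas 2.3.3, and gene spans came from RefSeq (GRCm38.p6). The members and lists were chosen with earlier results of these data known. Exact permutation tests compared libraries, adjusted by Benjamini-Hochberg over 6 tests, and the smallest p was 0.029 for MGE against CTX and 0.056 for KCl within cultures. The procedures were tested on simulated data.

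Text names the 3 regions of each class with the most called bases or the largest mean difference, the 3 farthest from genes, those at the 100 kb limit, the 10 deserts with most regions, the 5 largest clusters, and up to 8 genes per list. Deserts rich in MGE-only, CTX-only or gained regions and other genes were named after their values were seen. The correlation of deviations between libraries of the same number lay between −0.00044 and 0.275, so the numbers were not taken as pairs. Alternatives were other distances, list minimums, q-value limits, merging rules, equal list sizes and libraries left out.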

Additional observations from a re-analysis of the deposited data

Results flagged for a closer look

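MGE KCl 2 called 45.4% of the desert regions, which stood apart from 32.0%, 33.3% and 33.5% in the other 3 MGE libraries. A gap test of this kind sets off about 1 in 20 groups by chance. That library also held the most peaks of the MGE lists (49635).

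The lists held 29 peaks on chromosomes Y and M, which entered no comparison, with 0 to 7 per library.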

How the results depend on the processing

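Desert regions stayed below the others in fold percentile and called length under every alternative. With only the CTX libraries numbered 1 beside MGE (chosen after seeing the data) the differences were −11.3 and −123 bp (exact permutation test, p = 0.031 and adjusted p = 0.0938 each). With 6 libraries that p is the smallest the test can give, so it could not pass after adjustment. Under that setting the MGE minus CTX difference was 1.06 points in desert share and 7.09 points in desert regions called, with 7900 desert regions, 543 lost in CTX, 50.9% of MGE regions in no CTX library and 81.6% with another within 50 kb. With equal numbers of peaks these 2 differences were 0.419 and 0.654 points, and the KCl minus unstimulated difference in regions called was −1.28 points. Gained CTX regions then numbered 596, MGE-only 812 and CTX-only 727. The restricted percentages were 48.7 for MGE and 42.5 for CTX, with 82.0% clustered. With equal called bases (chosen after seeing the data) the differences were 1.98, 15.2 and −9.03 points, with 6230 desert regions. Of these 421 were gained and 686 lost in MGE, and 197 gained and 526 lost in CTX. MGE-only regions numbered 653 and CTX-only 332, with 285 in all 8, 50.6% and 37.5% restricted and 77.0% clustered. At 50 kb from genes 1021 were in all 8, 36.5% and 42.8% were restricted and 89.6% clustered. At 250 kb there were 6005 desert regions, with 471 gained and 207 lost in MGE, 458 gained and 417 lost in CTX, 438 MGE-only, 628 CTX-only, 273 in all 8, 46.5% and 48.5% restricted and 86.6% clustered. With at least 3 lists there were 7823, with 329 gained and 171 lost in MGE, 315 gained and 156 lost in CTX, and 82.4% clustered. With at least 1 list there were 21791, and 94.8% clustered. At a −log10 q of at least 5 there were 2792, with 204 gained and 85 lost in MGE, 154 gained and 81 lost in CTX, 126 MGE-only, 183 CTX-only, 64 in all 8, 47.2% and 49.6% restricted and 61.6% clustered. Merging peaks within 1 kb gave 36.05% and 43.1% restricted and 82.0% clustered. Requiring 50% of a region to be filled gave 499 MGE-only, 800 CTX-only, 139 in all 8, 56.3% and 61.5% restricted and 86.3% clustered. Fewer regions enter the stricter settings by construction, and other causes were not tested.

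With each library left out in turn, desert regions numbered 10263 to 11682. The MGE minus CTX differences were −1.91 to −0.426 points in share and −23.6 to −9.88 in regions called, and the KCl differences −0.779 to 0.198 (above 0 without CTX unstimulated 2) and −3.08 to 11.4 (below 0 without CTX KCl 2). The fold difference was −10.4 to −9.01 and the length difference −138 to −130.0 bp. MGE counts were 468 to 1273 gained and 382 to 995 lost, with the lowest gained and highest lost count without MGE KCl 2. CTX counts were 405 to 1926 gained and 219 to 1840 lost. MGE-only regions numbered 767 to 1000, CTX-only 1307 to 1963 (the highest without CTX KCl 1) and all-8 regions 658 to 799. Restricted percentages were 40.1 to 44.4 for MGE and 46.1 to 52.8 for CTX, and 86.1% to 88.1% were clustered. With the replicate number as a block, which is not a pairing here, the MGE minus CTX differences were −1.19 and −16.3 points (exact permutation test, p = 0.125 each, adjusted p = 0.188), and no call changed.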
